A study of Homo sapiens with 9 samples.

Results

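Keratins, claudins and the other genes of tight junctions and desmosomes were examined in HCT116 cells, a human colorectal carcinoma line, whose levels of the long noncoding RNA CRLM1 had been altered. The 80 genes were all protein-coding genes of the count table with a numbered keratin symbol without a letter suffix, or a numbered claudin symbol, together with DSC1 to DSC3, DSG1 to DSG4, PKP1 to PKP4, the TJP genes, OCLN, JUP, DSP, EPCAM, F11R, MARVELD2 and MARVELD3, out of 31558 genes listed. They comprised 22 type I keratins, 19 type II keratins, KRT222, 17 claudins, 7 other tight junction genes, 7 desmosomal cadherins, 6 desmosomal plaque genes and EPCAM. The symbols KRT6A, KRT6B, KRT6C, KRT33A and KRT33B carry a letter suffix and were not included. RNA of 3 groups was sequenced with 3 biological replicates each. CRLM1-OE cells overexpressed CRLM1 (LINC01767), Ctrl cells carried the empty plasmid, and Anti cells carried a plasmid with the antisense sequence of CRLM1. The study calls these cells transfected, and its methods also describe a lentiviral CRLM1 vector with GFP and puromycin resistance. Whether the sequenced cells were stable lines under drug selection is not stated there. All groups come from a single line. The sources used here do not say whether the replicates of a group were separate transfections or transductions. The p-values therefore measure the spread between these samples.

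Keratins are the intermediate filament proteins of epithelial cells and assemble as obligate pairs of a type I (acidic) and a type II (basic) chain. KRT8 pairs with KRT18 or KRT19 in the simple epithelium that lines the gut, whereas KRT5 and KRT14 are the pair of basal squamous cells and KRT16 and KRT17 are induced in wounded or proliferating epidermis. Claudins are the membrane proteins that seal the space between neighbouring cells in tight junctions, with occludin, tricellulin (MARVELD2), MARVELD3 and JAM-A (F11R) as further membrane components and zonula occludens proteins such as TJP1 and TJP3 beneath them. Desmosomes join keratin filaments of adjacent cells: the cadherins DSG and DSC span the membrane, plakoglobin (JUP) and plakophilins (PKP) bind their tails, and desmoplakin (DSP) links them to keratin. EPCAM is an epithelial adhesion molecule that binds claudins.

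Between 33302292 and 44514692 reads were counted per sample, so that 3 counts, the smallest signal considered, stood for 0.0674 to 0.0901 CPM; reads without molecular identifiers make this floor a limit of counting error only. The CRLM1 gene had 38704, 32751 and 35726 counts in CRLM1-OE, 0 in every Ctrl sample, and 1951, 1777 and 1540 in Anti. Anti cells carry the antisense sequence and the strand setting is not given. Whether the counts in Anti are of CRLM1 or of its antisense transcript therefore cannot be told. All 8 colon epithelium markers were listed, with summed levels of 4850 to 4983 FPKM (fragments per kilobase of exon, scaled to sequencing depth) in CRLM1-OE, 5521 to 5559 in Ctrl and 4573 to 4627 in Anti. Of that list EPCAM, KRT8, KRT18, KRT19 and KRT20 are themselves members. KRT19, KRT8 and KRT18, with means of 2882, 1351 and 679 FPKM, made up most of the sum. The sum is therefore no separate check of cell identity. Only 6 of the 8 markers reached 1 FPKM in any sample. Of these markers KRT20, which marks mature colonocytes, was close to absent at 0.408 FPKM on average. Fibroblast markers (6 of 7 listed, LUM not) summed to 8.73 to 9.52 FPKM in CRLM1-OE, 6.79 to 7.66 in Ctrl and 5.87 to 6.58 in Anti. Haematopoietic markers (5 of 6 listed, CD3E not) summed to 2.06 to 2.17, 1.71 to 1.93 and 1.49 to 1.73 FPKM. Both sums were highest in CRLM1-OE and lowest in Anti, and their part in the results was not tested. Endothelial markers (5 of 5 listed) stayed at 0.05 to 0.14 FPKM in all samples. Markers of squamous and basal epithelium (6 of 7 listed, KRT1 not) summed to 36.9 to 39.1 FPKM in CRLM1-OE, 40.9 to 42.4 in Ctrl and 28.8 to 30.5 in Anti, nearly all of it KRT10. In bulk RNA, fewer cells of a type and less RNA per cell cannot be told apart.

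HCT116 cells used a narrow part of these families. Of the 80 genes, 61 had a mean of at least 1 count per sample, 44 at least 10, 35 at least 100 and 8 at least 10000, and 19 had fewer than 10 counts over the 9 samples together. The share with a mean of at least 100 counts was 8 of 22 among type I keratins, 5 of 19 among type II keratins and 6 of 17 among claudins. It was 7 of 7 among other tight junction genes, 3 of 7 among desmosomal cadherins and 5 of 6 among plaque genes. On the length-scaled FPKM scale KRT19 had the highest mean level (2882 FPKM, rank 21 of all genes), followed by KRT8 (1351 FPKM, rank 48) and KRT18 (679 FPKM, rank 93). Their summed share of all keratin FPKM, in percent (mean ± SD, n = 3), was 96.0 ± 0.0130 in the CRLM1-OE group, 95.5 ± 0.0485 in the Ctrl group and 93.6 ± 0.0559 in the Anti group. KRT7 (134 FPKM), CLDN7 (127 FPKM), JUP (116 FPKM), CLDN4 (105 FPKM) and EPCAM (85.1 FPKM) came next. Together the 80 genes took 1.30 to 1.31 percent of the counts in CRLM1-OE, 1.36 to 1.37 percent in Ctrl and 1.21 to 1.22 percent in Anti.

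The study compared CRLM1-OE with both negative controls to find genes regulated by CRLM1, and Anti with Ctrl compares the controls themselves. Each comparison was fitted with edgeR's quasi-likelihood test on the counts of its 6 samples, and adjusted p-values (Benjamini-Hochberg) cover all genes tested; values below 1e-300 were written as 1e-300. Against Ctrl, 13 of 77 tested members rose and 19 fell at an adjusted p of at most 0.05 (16.9 and 24.7 percent), where 15.0 percent of all 29846 genes rose and 16.8 percent fell. At a fold change of at least 2 as well, 1 member rose and 4 fell, against 2.5 and 0.915 percent of all genes. Against Anti, 18 of 80 members rose and 16 fell (22.5 and 20 percent), against 17.1 and 18.5 percent of all 30183 genes. There 5 rose and 4 fell by at least 2-fold, against 3.09 and 2.56 percent. Between the controls, 10 of 76 members were higher and 16 lower in Anti (13.2 and 21.1 percent), against 11.5 and 12.2 percent of all 29714 genes. By at least 2-fold, 1 was higher and 0 were lower, against 0.683 and 0.38 percent. The controls thus differed from each other at many members, and the comparisons with CRLM1-OE share its samples, so their values stand side by side below.

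Deeply counted genes pass the test more often, and most members named below are deeply counted. Among genes with a mean of at least 100 counts, 26 of 34 members passed against Ctrl, which is 76.5 percent where all 11716 such genes gave 68.0 percent. Against Anti 29 of 34 passed (85.3 percent, 74.2 percent of all), and between Anti and Ctrl 24 of 35 (68.6 percent, 54.2 percent of all). The median log2 fold change of these members was -0.047 against Ctrl, -0.010 against Anti and -0.0074 between the controls, beside -0.045, -0.036 and -0.0067 over all genes of that depth. Scaling to total counts instead of TMM factors raised the median over all genes of that depth by 0.14 for CRLM1-OE against Ctrl, 0.059 against Anti and 0.10 for Anti against Ctrl, and the deposited FPKM follow total counts. The split of members then became 19 up and 14 down against Ctrl, and 18 up and 11 down for Anti against Ctrl, in place of 13 and 19 and of 10 and 16. FPKM and fitted values can therefore part by about these amounts.

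**Figure D1:**
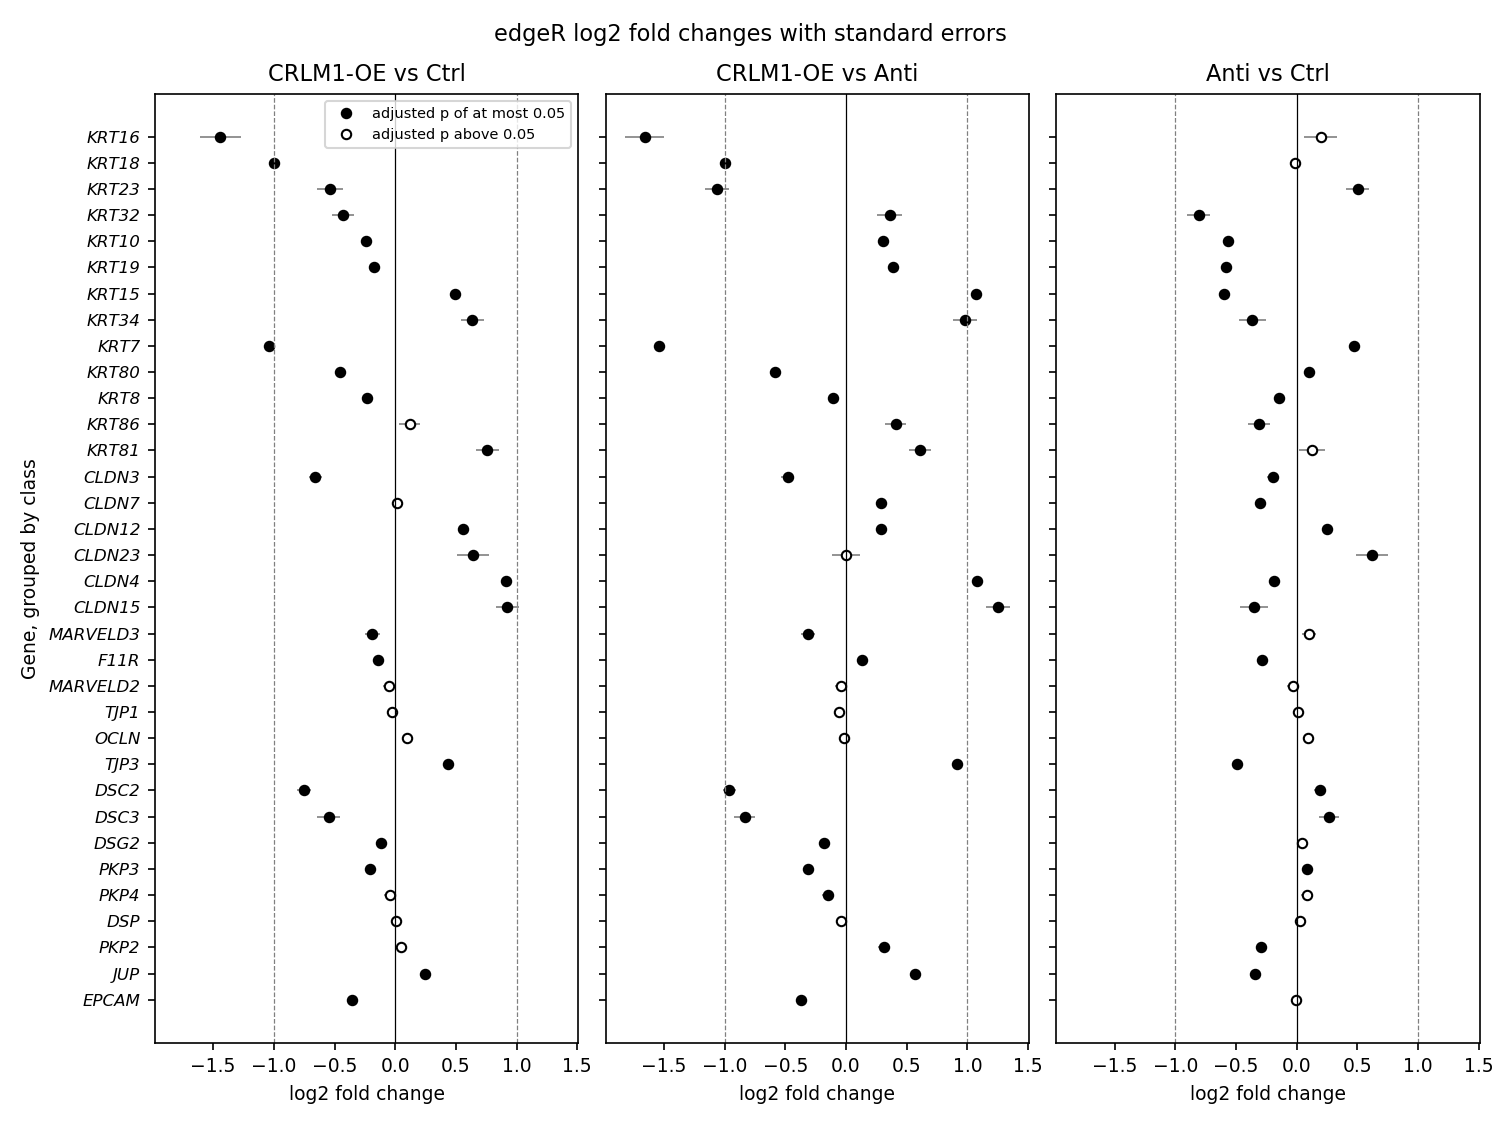
edgeR log2 fold changes (horizontal axis, with standard errors as bars) of members with a mean of at least 100 counts, 1 row per gene and 1 panel per comparison, filled where the adjusted p is at most 0.05. KRT16, KRT7 and KRT18 lie at the left in both CRLM1-OE panels, CLDN15 and CLDN4 at the right, and the controls differ in KRT32 and CLDN23 among others.

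KRT18 changed most with CRLM1 overexpression among the 3 most abundant keratins. This partner chain of KRT8 stood at 426, 428 and 424 FPKM in the CRLM1-OE samples, 789.9, 777 and 789 in the Ctrl samples and 810.3, 829 and 839 in the Anti samples. The 3 CRLM1-OE samples lay far below all 6 control samples and had an SD of 2.07 FPKM. KRT18 was 1.99-fold lower than in Ctrl (log2 fold change -1.0, SE 0.018, adjusted p = 1e-300) and 2.0-fold lower than in Anti (log2 fold change -1.0, SE 0.015, adjusted p = 1e-300), in both cases just under the 2-fold threshold. Anti and Ctrl gave no difference past the test (log2 fold change -0.019, SE 0.017, adjusted p = 0.535), although total-count scaling turned this into 0.086 with an adjusted p of 1.06e-06.

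KRT8, the type II chain of the same filaments, was nearly level by comparison, with 1289, 1309 and 1281 FPKM in the CRLM1-OE samples, 1421, 1395 and 1401 in the Ctrl samples and 1350.5, 1356 and 1353 in the Anti samples. It fell by 0.24 on the log2 scale against Ctrl (SE 0.015, adjusted p = 6.15e-52) and by 0.11 against Anti (SE 0.013, adjusted p = 1.10e-16). Anti was below Ctrl for KRT8 (log2 fold change -0.15), past the test in the main fit but not with limma (adjusted p = 0.0998 and 0.0646). The ratio of KRT18 to KRT8 in FPKM was 0.330 ± 0.00213 in the CRLM1-OE group, 0.559 ± 0.00381 in the Ctrl group and 0.610 ± 0.00998 in the Anti group (mean ± SD, n = 3), with no overlap between groups. An exact two-sided permutation test of 3 samples against 3 cannot go below p = 0.1, so for this ratio and those given later the separation itself is what the data show. In GENCODE version 44 on GRCh38, KRT8 (chr12:52897187-52949954, reverse strand) and KRT18 (chr12:52948871-52952906, forward strand) overlap by 525 exon bases, which are 7.6 percent of the exon bases of KRT8 and 17.1 percent of those of KRT18, and without a stated strand setting reads there cannot be assigned. Reads given to their processed pseudogenes were few, at 0.060 to 0.119 percent of the KRT8 counts over 23 KRT8P rows and 0.029 to 0.080 percent of the KRT18 counts over 17 KRT18P rows.

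KRT19, the other type I partner of KRT8, followed another order of groups. Its levels were 3124, 3148 and 3045 FPKM in the CRLM1-OE samples, 3197, 3251 and 3257 in the Ctrl samples and 2346, 2270.1 and 2299 in the Anti samples, so that Anti was low and CRLM1-OE close to Ctrl. Against Anti the log2 fold change of CRLM1-OE was 0.38 (SE 0.012, adjusted p = 1.60e-206), and Anti was lower than Ctrl by 0.58 (SE 0.015, adjusted p = 1e-300). The small difference between CRLM1-OE and Ctrl, -0.17 (SE 0.014, adjusted p = 9.04e-33), shrank to -0.032 with an adjusted p of 0.0645 under total counts. The ratio of KRT18 to KRT19 was 0.137 ± 0.00177 in the CRLM1-OE group, 0.243 ± 0.00403 in the Ctrl group and 0.359 ± 0.0113 in the Anti group. That of KRT19 to KRT8 was 2.40 ± 0.0230 in the CRLM1-OE group, 2.30 ± 0.0447 in the Ctrl group and 1.70 ± 0.0318 in the Anti group. Summed type I keratins over summed type II keratins gave 2.59 ± 0.0176 in the CRLM1-OE group, 2.59 ± 0.0406 in the Ctrl group and 2.0 ± 0.0185 in the Anti group, where CRLM1-OE and Ctrl overlapped and Anti lay lower.

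KRT7, a type II keratin of ducts and glands that is usually low in colon epithelium, also fell and passed 2-fold against both controls. It stood at 69.0, 72.6 and 68.7 FPKM in the CRLM1-OE samples, 133, 131 and 136 in the Ctrl samples and 202, 195 and 196 in the Anti samples, 3 separate levels with Anti highest. CRLM1-OE was 2.06-fold below Ctrl (log2 fold change -1.04, SE 0.026, adjusted p = 1e-300) and 2.91-fold below Anti (log2 fold change -1.54, SE 0.023, adjusted p = 1e-300). Anti exceeded Ctrl (log2 fold change 0.47, SE 0.023, adjusted p = 3.18e-90). The value against Ctrl was near the 2-fold threshold, and total counts gave -0.90 at an adjusted p of 4.50e-254. The ratio of KRT7 to KRT8 was 0.0542 ± 0.00110 in the CRLM1-OE group, 0.0949 ± 0.00181 in the Ctrl group and 0.146 ± 0.00292 in the Anti group. KRT80, a type II keratin whose gene lies 40505 bp from KRT7 on chromosome 12, had the same order of groups at smaller distances. KRT80 measured 29.1, 27.4 and 26.6 FPKM in the CRLM1-OE samples, 36.4, 34.7 and 34.3 in the Ctrl samples and 40.2, 39.6 and 40.8 in the Anti samples. The log2 fold changes of KRT80 were -0.46 (SE 0.029, adjusted p = 6.43e-56) against Ctrl, -0.58 (SE 0.026, adjusted p = 1.54e-111) against Anti and 0.10 (SE 0.027, adjusted p = 8.94e-04) for Anti against Ctrl.

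**Figure D2:**
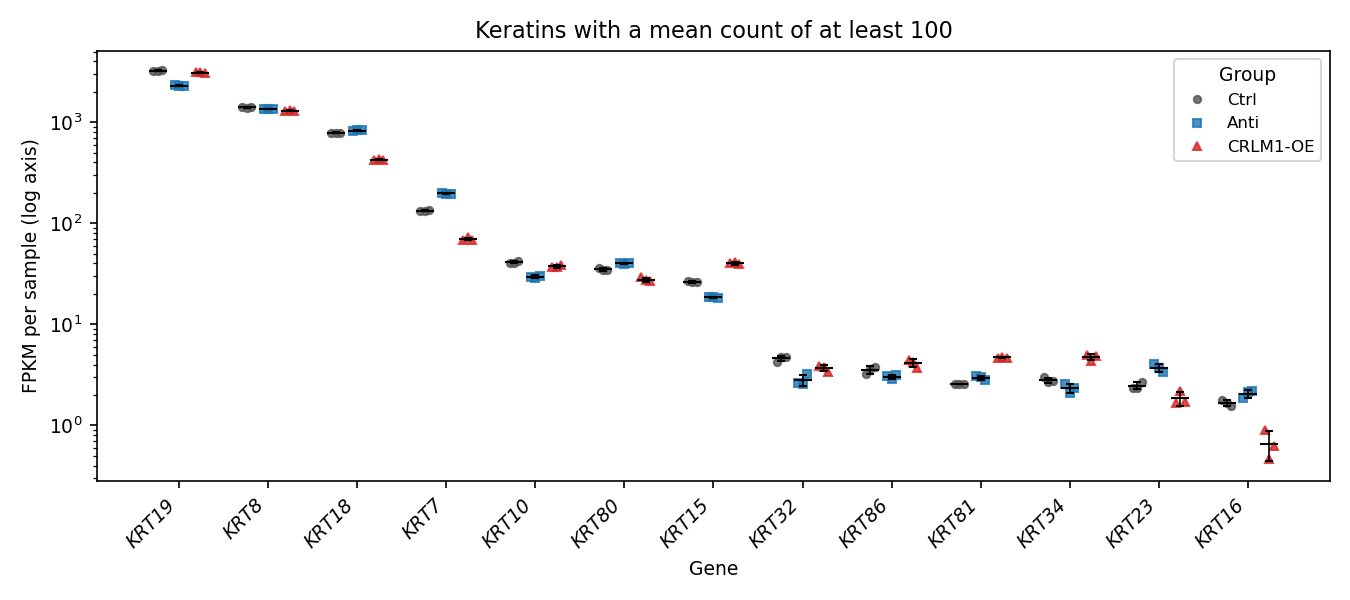
FPKM of the 13 keratins with a mean of at least 100 counts (log vertical axis), with a point for each of the 3 samples of a group and the mean ± SD as bars. KRT18, KRT7 and KRT16 are lowest in CRLM1-OE, whereas KRT15, KRT34 and KRT81 are highest there.

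KRT15, a type I keratin found in progenitor cells of stratified epithelia, moved in the opposite direction. The levels were 40.0, 41.5 and 39.1 FPKM in the CRLM1-OE samples, 27.1, 26.0 and 26.2 in the Ctrl samples and 18.6, 18.6 and 18.4 in the Anti samples, with no overlap between groups. CRLM1-OE exceeded Anti by 2.10-fold (log2 fold change 1.07, SE 0.025, adjusted p = 1e-300) and Ctrl by 1.41-fold (log2 fold change 0.49, SE 0.026, adjusted p = 3.08e-76). Anti was below Ctrl (log2 fold change -0.60, SE 0.029, adjusted p = 6.25e-96). KRT15 lies 1087 bp from KRT19 on chromosome 17, and both were lowest in Anti. KRT10, a type I keratin of differentiated epidermis, was also lowest there, with 36.7, 37.1 and 39.0 FPKM in the CRLM1-OE samples, 40.5, 40.8 and 42.0 in the Ctrl samples and 29.7, 28.7 and 30.4 in the Anti samples. Its log2 fold changes were -0.57 (SE 0.033, adjusted p = 1.77e-64) for Anti against Ctrl, 0.30 (SE 0.032, adjusted p = 2.84e-20) for CRLM1-OE against Anti and -0.24 (SE 0.032, adjusted p = 2.48e-13) against Ctrl.

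KRT14, KRT16 and KRT17, keratins of basal and activated epidermis, were scarce, and CRLM1-OE had less of them than Ctrl. KRT16 had counts of 70, 29 and 45 in the CRLM1-OE samples, 147, 113 and 102 in the Ctrl samples and 139, 150 and 144 in the Anti samples, and the samples of CRLM1-OE lay below all others. Its log2 fold change was -1.44 (SE 0.17, adjusted p = 4.47e-16) against Ctrl and -1.66 (SE 0.16, adjusted p = 1.47e-23) against Anti, and 0.20 (SE 0.13, adjusted p = 0.356) between the controls. KRT17 had counts of 7, 6 and 3 in the CRLM1-OE samples, 30, 22 and 18 in the Ctrl samples and 67, 46 and 49 in the Anti samples, a clear order of 3 groups. CRLM1-OE was lower than Ctrl (log2 fold change -2.20, SE 0.43, adjusted p = 1.05e-06) and Anti (log2 fold change -3.37, SE 0.34, adjusted p = 5.95e-22). The difference between Anti and Ctrl also passed 2-fold (log2 fold change 1.14, SE 0.24, adjusted p = 2.07e-05). KRT14 had counts of 10, 6 and 4 in the CRLM1-OE samples, 24, 17 and 23 in the Ctrl samples and 21, 6 and 9 in the Anti samples. It was lower in CRLM1-OE than in Ctrl (log2 fold change -1.77, SE 0.42, adjusted p = 8.21e-05), and the comparison with Anti did not pass (log2 fold change -0.89, SE 0.49, adjusted p = 0.157), its groups overlapping. Anti against Ctrl passed narrowly for KRT14 (log2 fold change -0.90, SE 0.36, adjusted p = 0.0462). It lost the call without Ctrl replicate 1, Ctrl replicate 3, Anti replicate 2 or Anti replicate 3 (adjusted p = 0.0835, 0.182, 0.323 and 0.152), and under total counts, DESeq2, limma and the fit of all 9 samples. The value was -1.51 with an adjusted p of 0.00332 without Anti replicate 1. These 3 genes lie together on chromosome 17 and have similar sequences, so reads could be split between them, and KRT5, the partner of KRT14, had at most 4 counts in any sample, with a log2 fold change against Ctrl in the other direction (log2 fold change 1.14, SE 1.12, adjusted p = 0.495).

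Other keratins showed mixed directions. KRT23, a type I keratin known from colon cancer cells, had 1.67, 2.17 and 1.71 FPKM in the CRLM1-OE samples, 2.35, 2.37 and 2.70 in the Ctrl samples and 4.03, 3.72 and 3.38 in the Anti samples, lowest in CRLM1-OE and highest in Anti. Its log2 fold change was -1.06 (SE 0.10, adjusted p = 6.47e-26) against Anti, -0.54 (SE 0.11, adjusted p = 4.37e-06) against Ctrl and 0.50 (SE 0.093, adjusted p = 8.10e-07) for Anti against Ctrl. The first of these was just under 2-fold at -0.997 without CRLM1-OE replicate 1. KRT20 had counts of 29, 10 and 31 in the CRLM1-OE samples, 32, 29 and 28 in the Ctrl samples and 40, 44 and 32 in the Anti samples. It passed only against Anti (log2 fold change -0.80, SE 0.27, adjusted p = 0.00947). This was lost without CRLM1-OE replicate 2 (-0.51, adjusted p = 0.168) or without Anti replicate 2 (adjusted p = 0.0608), and also with DESeq2 (adjusted p = 0.0738) and limma (adjusted p = 0.134 and 0.0976). Against Ctrl KRT20 gave -0.47 (SE 0.29, adjusted p = 0.246), and Anti against Ctrl 0.31 (SE 0.25, adjusted p = 0.473).

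Of the hair keratins, a group not typical of gut epithelium, KRT32, KRT34, KRT81 and KRT86 were present at a few FPKM. KRT34 reached 4.97, 4.35 and 4.84 FPKM in the CRLM1-OE samples, 2.98, 2.67 and 2.76 in the Ctrl samples and 2.54, 2.08 and 2.34 in the Anti samples, and CRLM1-OE was highest. Its log2 fold change was 0.64 (SE 0.10, adjusted p = 2.48e-10) against Ctrl and 0.98 (SE 0.10, adjusted p = 6.11e-22) against Anti. Anti was below Ctrl for KRT34 (log2 fold change -0.37), past the test in the main fit. That was lost without Ctrl replicate 1 or Anti replicate 2 (adjusted p = 0.0515 and 0.0690), under total counts (0.0737) and with limma (0.0752 and 0.0871). KRT81 was also highest in CRLM1-OE at 4.68, 4.78 and 4.63 FPKM, against 2.54, 2.57 and 2.57 in Ctrl and 3.08, 3.0 and 2.82 in Anti. Its log2 fold changes were 0.76 (SE 0.094, adjusted p = 6.60e-15) against Ctrl and 0.61 (SE 0.091, adjusted p = 1.01e-10) against Anti. KRT32 was highest in Ctrl at 4.28, 4.79 and 4.75 FPKM and lowest in Anti at 2.63, 2.57 and 3.20, with 3.90, 3.76 and 3.41 in CRLM1-OE. Anti against Ctrl gave -0.81 (SE 0.10, adjusted p = 1.17e-15) for KRT32, and CRLM1-OE -0.43 (SE 0.091, adjusted p = 1.42e-05) against Ctrl and 0.36 (SE 0.10, adjusted p = 0.00134) against Anti. KRT86, whose gene overlaps that of KRT81, gave 0.12 (SE 0.084, adjusted p = 0.338) against Ctrl, 0.41 (SE 0.087, adjusted p = 1.11e-05) against Anti and -0.31 (SE 0.090, adjusted p = 0.00299) for Anti against Ctrl. The last was lost without Ctrl replicate 3 (adjusted p = 0.0529), under total counts (0.0781) and with limma (0.0915 and 0.106). Under total counts KRT86 passed against Ctrl (0.26, adjusted p = 0.00756). The hair keratins resemble each other in sequence, and reads may be split between them.

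KRT31, a hair keratin, had counts of 31, 16 and 24 in the CRLM1-OE samples, 19, 6 and 9 in the Ctrl samples and 7, 2 and 9 in the Anti samples. KRT9, a keratin of palm and sole epidermis, had counts of 29, 33 and 23 in the CRLM1-OE samples, 12, 17 and 15 in the Ctrl samples and 11, 9 and 13 in the Anti samples. Both were higher in CRLM1-OE than in Anti, with log2 fold changes of 1.88 (SE 0.41, adjusted p = 1.78e-05) and 1.30 (SE 0.34, adjusted p = 4.74e-04). KRT37 had counts of 14, 17 and 12 in the CRLM1-OE samples, 2, 3 and 10 in the Ctrl samples and 8, 8 and 6 in the Anti samples. This hair keratin was the only member called at least 2-fold higher than in Ctrl (log2 fold change 1.38, SE 0.50, adjusted p = 0.0189). That call was lost without CRLM1-OE replicate 2, Ctrl replicate 1 or Ctrl replicate 2 (adjusted p = 0.135, 0.203 and 0.0894). Without Ctrl replicate 3, which held 10 of the 15 Ctrl counts, the value was 2.44. Against Ctrl KRT31 gave 0.95 (SE 0.36, adjusted p = 0.0240), which was lost without CRLM1-OE replicate 1, Ctrl replicate 2 or Ctrl replicate 3 (adjusted p = 0.136, 0.169 and 0.0586). KRT9 gave 0.84 (SE 0.32, adjusted p = 0.0291), which was lost without CRLM1-OE replicate 2 or Ctrl replicate 1 (adjusted p = 0.211 and 0.197). The calls of KRT31, KRT9 and KRT37 against Ctrl were also lost with DESeq2 (adjusted p = 0.107, 0.110 and 0.101) and with both limma fits. In GENCODE version 44, 36.5 percent of the exon bases of KRT37 are shared with a noncoding gene on the opposite strand. Of the keratins not named so far, KRT13 had a mean of 71.2 counts and KRT83 of 68.3, and the others, KRT222 included, were at or below 7.22 counts. None of them passed in any comparison.

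Among the claudins CLDN4, CLDN12, CLDN15 and CLDN23 were higher and CLDN3 lower in CRLM1-OE than in Ctrl. Of 16 claudins tested against Ctrl 4 rose and 1 fell, beside 15.0 and 16.8 percent of all genes. Among genes with a mean of at least 100 counts, 5 of 6 claudins passed, beside 68.0 percent of all, with a median log2 fold change of 0.60 where all genes of that depth had -0.045. Against Anti 4 of 17 rose and 1 fell, beside 17.1 and 18.5 percent of all genes, with a median of 0.29 among those 6. In Anti against Ctrl 2 of 16 were higher and 4 lower (median -0.19), beside 11.5 and 12.2 percent of all genes. Summed claudin FPKM were 336 ± 1.09 in the CRLM1-OE group, 241 ± 5.79 in the Ctrl group and 219 ± 1.24 in the Anti group.

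CLDN4, a sealing claudin of simple epithelia and a receptor for a clostridial enterotoxin, stood at 163, 163 and 160.2 FPKM in the CRLM1-OE samples, 78.6, 78.4 and 80.7 in the Ctrl samples and 73.6, 75.1 and 73.6 in the Anti samples. All CRLM1-OE samples were at or above 160.2 FPKM and all control samples at or below 80.7 FPKM. CLDN4 was 2.12-fold higher than in Anti (log2 fold change 1.08, SE 0.019, adjusted p = 1e-300) and 1.89-fold higher than in Ctrl (log2 fold change 0.92, SE 0.021, adjusted p = 1e-300), the latter 1.06 under total counts. Anti was slightly below Ctrl (log2 fold change -0.19, SE 0.023, adjusted p = 2.50e-15). The percentage of claudin FPKM that was CLDN4 was 48.2 ± 0.414 in the CRLM1-OE group, 32.9 ± 0.300 in the Ctrl group and 33.9 ± 0.516 in the Anti group.

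CLDN3, another sealing claudin whose gene lies 29271 bp from CLDN4 on chromosome 7, moved the other way. Its levels were 14.2, 14.8 and 14.7 FPKM in the CRLM1-OE samples, 21.3, 21.5 and 20.8 in the Ctrl samples and 19.9, 19.6 and 19.5 in the Anti samples, with CRLM1-OE below all controls. The log2 fold change was -0.66 (SE 0.054, adjusted p = 3.34e-33) against Ctrl, -0.48 (SE 0.054, adjusted p = 5.47e-18) against Anti and -0.20 (SE 0.050, adjusted p = 5.22e-04) for Anti against Ctrl. The last was lost under total counts, at -0.094 with an adjusted p of 0.193. The ratio of CLDN4 to CLDN3 was 11.1 ± 0.315 in the CRLM1-OE group, 3.74 ± 0.120 in the Ctrl group and 3.77 ± 0.0682 in the Anti group, the controls overlapping and CRLM1-OE lying apart.

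CLDN15, which forms cation channels in the intestine, rose with CLDN4, from 1.68, 2.13 and 2.03 FPKM in Ctrl and 1.56, 1.61 and 1.68 in Anti to 3.93, 3.96 and 4.0 in CRLM1-OE. It was 2.38-fold higher than in Anti (log2 fold change 1.25, SE 0.10, adjusted p = 2.82e-36) and 1.90-fold higher than in Ctrl (log2 fold change 0.92, SE 0.095, adjusted p = 2.34e-21). Anti against Ctrl gave -0.35 (SE 0.12, adjusted p = 0.0121) with overlapping FPKM, and lost the call without Ctrl replicate 2, Ctrl replicate 3 or Anti replicate 1 (adjusted p = 0.141, 0.0650 and 0.0528), as it did under total counts, DESeq2 and limma. CLDN7, the most abundant claudin on average, had 139.8, 141 and 142 FPKM in the CRLM1-OE samples, 125, 127 and 135 in the Ctrl samples and 111, 109.5 and 113 in the Anti samples. Its fitted difference from Ctrl was 0.011 (SE 0.024, adjusted p = 0.766), or 0.15 with an adjusted p of 6.55e-10 under total counts. It was higher than in Anti (log2 fold change 0.29, SE 0.021, adjusted p = 4.02e-41) and lower in Anti than in Ctrl (log2 fold change -0.30, SE 0.024, adjusted p = 5.02e-35). In GENCODE version 44 it shares 10.8 percent of its exon bases with another gene of the same strand. The ratio of CLDN4 to CLDN7 was 1.15 ± 0.0174 in the CRLM1-OE group, 0.615 ± 0.0159 in the Ctrl group and 0.666 ± 0.0182 in the Anti group, and CLDN4 was the most abundant claudin in CRLM1-OE, CLDN7 in both controls.

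CLDN12, a broadly expressed claudin, had 12.1, 12.5 and 12.3 FPKM in the CRLM1-OE samples, 8.13, 7.54 and 7.46 in the Ctrl samples and 9.47, 10.2 and 9.78 in the Anti samples and was highest in CRLM1-OE. Its log2 fold change was 0.56 (SE 0.044, adjusted p = 3.65e-35) against Ctrl, 0.28 (SE 0.041, adjusted p = 3.81e-11) against Anti and 0.25 (SE 0.046, adjusted p = 5.71e-07) for Anti against Ctrl. CLDN23, a claudin of the colonic surface, was low in Ctrl at 1.26, 1.30 and 0.810 FPKM and higher in CRLM1-OE (1.83, 1.74 and 2.15 FPKM) and Anti (1.82, 1.74 and 2.0 FPKM). It exceeded Ctrl in CRLM1-OE (log2 fold change 0.64, SE 0.13, adjusted p = 6.18e-06) and in Anti (log2 fold change 0.62, SE 0.13, adjusted p = 2.07e-05). The difference between these groups was -0.0028 (SE 0.12, adjusted p = 0.990), with a sign that changed under most alternatives. CLDN1, a barrier claudin often raised in colorectal tumours, had counts of only 24, 17 and 16 in the CRLM1-OE samples, 15, 9 and 9 in the Ctrl samples and 10, 9 and 10 in the Anti samples. It did not pass against Ctrl (log2 fold change 0.68, SE 0.38, adjusted p = 0.185) or Anti (log2 fold change 0.90, SE 0.39, adjusted p = 0.0569), the latter passing under total counts, filterByExpr and limma on log2(FPKM + 1) (adjusted p = 0.0384, 0.0268 and 0.0156). Anti against Ctrl gave -0.24 (SE 0.46, adjusted p = 0.759). CLDN2, a cation channel of leaky epithelia, had at most 5 counts in any sample and allows no statement. All other claudins had a mean of 26.1 counts (CLDN9) or fewer, and none passed in any comparison.

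The promoter sequences of CLDN4 and CLDN15, which rose, and of CLDN3, which fell, are shown with that of CLDN7 for comparison. They are the 250 bases before the RefSeq start on GRCh38.p14, written 5′ to 3′ on the strand of the gene, with matches to the AP-1 motif TGANTCA, which reads the same on both strands, or to the E-box CACCTG or its reverse complement in capitals.
CLDN4 promoter, chr7:73830746-73830995, strand +: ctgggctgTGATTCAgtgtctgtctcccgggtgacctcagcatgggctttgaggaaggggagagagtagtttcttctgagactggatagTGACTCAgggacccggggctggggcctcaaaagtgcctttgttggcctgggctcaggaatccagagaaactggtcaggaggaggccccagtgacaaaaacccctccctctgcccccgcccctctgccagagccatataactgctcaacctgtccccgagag
CLDN15 promoter, chr7:101237803-101238052, strand -: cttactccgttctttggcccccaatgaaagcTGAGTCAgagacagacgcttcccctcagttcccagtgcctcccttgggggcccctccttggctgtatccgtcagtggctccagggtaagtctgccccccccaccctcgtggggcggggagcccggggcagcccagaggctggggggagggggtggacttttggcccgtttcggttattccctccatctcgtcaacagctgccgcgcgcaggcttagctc
CLDN3 promoter, chr7:73770271-73770520, strand -: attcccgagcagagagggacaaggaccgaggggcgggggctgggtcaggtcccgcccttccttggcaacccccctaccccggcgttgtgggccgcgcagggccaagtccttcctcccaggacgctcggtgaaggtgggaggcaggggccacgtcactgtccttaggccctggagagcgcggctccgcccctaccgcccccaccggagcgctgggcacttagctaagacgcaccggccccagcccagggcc
CLDN7 promoter, chr17:7263214-7263463, strand -: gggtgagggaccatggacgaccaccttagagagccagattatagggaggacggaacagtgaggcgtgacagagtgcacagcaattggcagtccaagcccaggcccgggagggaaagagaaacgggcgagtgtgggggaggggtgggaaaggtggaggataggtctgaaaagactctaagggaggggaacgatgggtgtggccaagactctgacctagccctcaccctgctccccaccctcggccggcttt

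TGANTCA stood in the windows of CLDN4, at 2 places, and of CLDN15, and in no other of the 19 matched promoters among the 35 genes with a mean of at least 100 counts. The matched promoters without it include those of CLDN12, KRT34, TJP3 and JUP, which also rose against Ctrl. Of all 27305 promoters in the table, 6.60 percent held it. The GC box GGGCGG, searched on both strands, was in 12 of 19, CLDN3, CLDN4 and CLDN15 included, and in 42.3 percent of all. CACCTG was in 5 of 19 (DSC2, DSG2, DSP, OCLN and TJP1) and in 17.5 percent of all. Such matches describe letters and say nothing of binding.

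**Figure D3:**
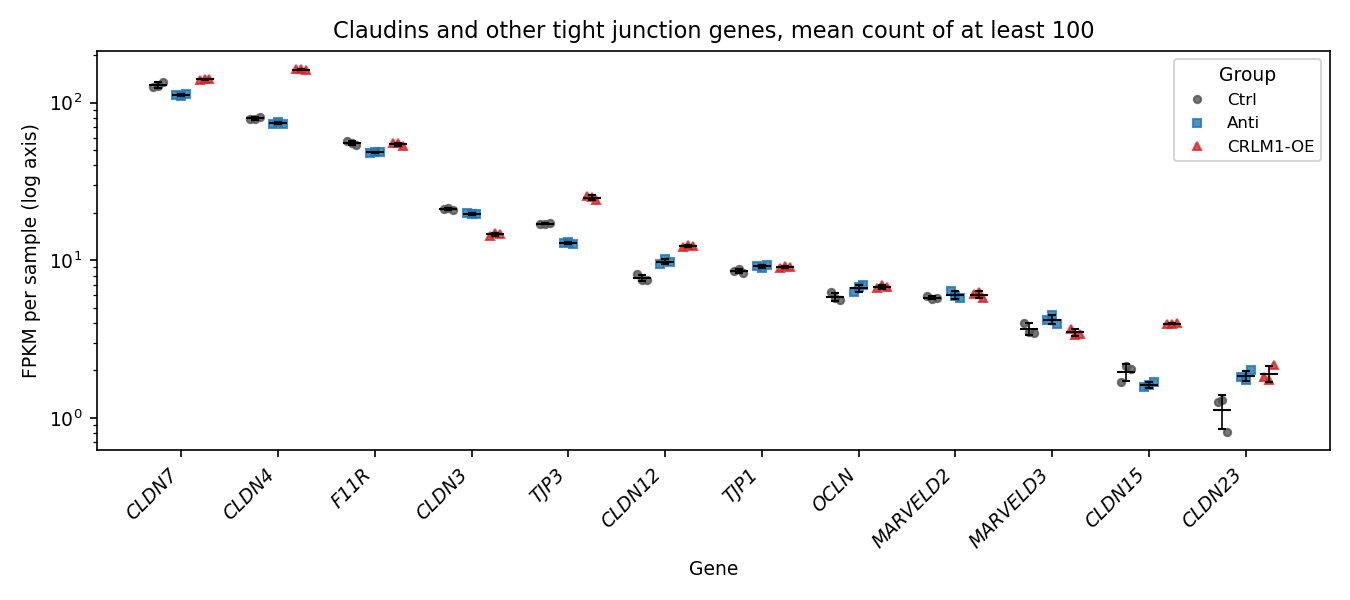
FPKM of claudins and other tight junction genes with a mean of at least 100 counts (log vertical axis), with a point for each of the 3 samples of a group and the mean ± SD as bars. CLDN4, TJP3, CLDN12 and CLDN15 are highest in CRLM1-OE, CLDN3 is lowest there, and TJP1, OCLN and MARVELD2 lie close together in all groups.

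Among the other tight junction genes, the scaffold gene TJP3 rose against both controls. TJP3 (ZO-3) had 25.6, 25.2 and 24.1 FPKM in the CRLM1-OE samples, 17.1, 16.9 and 17.1 in the Ctrl samples and 12.9, 13.1 and 12.6 in the Anti samples, with no overlap between groups. CRLM1-OE was 1.88-fold above Anti (log2 fold change 0.91, SE 0.033, adjusted p = 1.41e-164) and 1.35-fold above Ctrl (log2 fold change 0.44, SE 0.033, adjusted p = 3.41e-38). Anti was below Ctrl (log2 fold change -0.50, SE 0.037, adjusted p = 1.44e-38). TJP1 (ZO-1), the most widely used scaffold, had 8.97, 9.23 and 9.0 FPKM in the CRLM1-OE samples, 8.60, 8.75 and 8.24 in the Ctrl samples and 9.17, 8.96 and 9.27 in the Anti samples. It passed no comparison (-0.027, -0.057 and 0.0073, adjusted p = 0.556, 0.128 and 0.905), but total counts gave 0.11 against Ctrl with an adjusted p of 0.00129 and 0.11 for Anti against Ctrl with an adjusted p of 0.00169.

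Occludin (OCLN) had 6.62, 6.98 and 6.76 FPKM in the CRLM1-OE samples, 6.25, 5.74 and 5.59 in the Ctrl samples and 6.29, 6.77 and 6.92 in the Anti samples. Against Ctrl it gave 0.094 (SE 0.041, adjusted p = 0.0677), which became 0.24 with an adjusted p of 9.72e-08 under total counts and passed without Ctrl replicate 1 (adjusted p = 0.00397). It also passed with RLE factors, filterByExpr and both limma fits (adjusted p = 0.0403, 0.0207, 0.0187 and 0.0224). Against Anti OCLN gave -0.018 (SE 0.039, adjusted p = 0.769), a value that turned positive under total counts. Tricellulin (MARVELD2) stayed between 5.68 and 6.40 FPKM in all 9 samples, and its log2 fold changes of -0.050, -0.041 and -0.032 did not pass and turned positive under total counts. F11R (JAM-A) had 55.1, 55.4 and 53.2 FPKM in the CRLM1-OE samples, 57.0, 55.5 and 54.0 in the Ctrl samples and 48.1, 48.4 and 48.5 in the Anti samples. Anti was below Ctrl (log2 fold change -0.29, SE 0.024, adjusted p = 1.69e-32) and below CRLM1-OE, which exceeded it by 0.13 (SE 0.022, adjusted p = 1.34e-08). The value against Ctrl, -0.14 (SE 0.024, adjusted p = 3.25e-08), was 0.0018 under total counts and its FPKM overlapped. F11R shares 36.6 percent of its exon bases with another protein-coding gene of the same strand, and reads there are uncertain. MARVELD3 was lower in CRLM1-OE than in Anti (log2 fold change -0.31, SE 0.059, adjusted p = 4.75e-07). Its difference from Ctrl (log2 fold change -0.19, SE 0.061, adjusted p = 0.00775) was lost without CRLM1-OE replicate 2 or Ctrl replicate 1 (adjusted p = 0.0517 and 0.308) and under total counts. It was also lost with DESeq2 (adjusted p = 0.0552) and both limma fits (0.551 and 0.566).

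DSC2 and DSC3 fell in CRLM1-OE, as did DSG2, whose difference from Ctrl was lost under total counts and in the FPKM fits with limma, and these were the 3 of 7 desmosomal cadherins with a mean of at least 100 counts. Their median log2 fold change, which with 3 genes is the value of DSC3, was -0.55 against Ctrl and -0.84 against Anti. Over all genes of that depth it was -0.045 and -0.036. Of all genes tested, whatever their depth, 16.8 percent fell against Ctrl and 18.5 percent against Anti. Among all genes with a mean of at least 100 counts, 4542 of 11716 fell against Ctrl and 4733 of 11765 against Anti. Desmocollin 2 (DSC2), the widely expressed desmocollin, had 1.27, 1.22 and 1.16 FPKM in the CRLM1-OE samples, 1.99, 1.97 and 1.72 in the Ctrl samples and 2.31, 2.36 and 2.24 in the Anti samples. Every CRLM1-OE sample lay below every control sample, and DSC2 was 1.68-fold below Ctrl (log2 fold change -0.75, SE 0.058, adjusted p = 1.21e-36) and 1.95-fold below Anti (log2 fold change -0.96, SE 0.055, adjusted p = 3.27e-67) in the fit. DSC3, a desmocollin of basal epidermis whose gene lies 16024 bp from DSC2 on chromosome 18, was also lowest in CRLM1-OE. It measured 0.780, 0.910 and 0.830 FPKM in the CRLM1-OE samples, 1.11, 1.23 and 1.06 in the Ctrl samples and 1.52, 1.39 and 1.42 in the Anti samples. It gave -0.55 (SE 0.093, adjusted p = 2.41e-08) against Ctrl and -0.84 (SE 0.088, adjusted p = 2.08e-20) against Anti. Both were higher in Anti than in Ctrl, by 0.19 (SE 0.050, adjusted p = 0.00111) for DSC2 and 0.26 (SE 0.083, adjusted p = 0.00766) for DSC3. The first was lost without Ctrl replicate 3 (adjusted p = 0.0592) and the second without Anti replicate 1 (adjusted p = 0.0783).

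The DSC2 promoter is shown as that of the cadherin that fell most, in the same window and source as above. Its E-box is given in capitals as the reverse complement. Among the matched promoters, E-boxes also stood in those of DSG2, DSP, OCLN and TJP1. Their log2 fold changes against Ctrl were -0.12, 0.0039, 0.094 and -0.027. The promoter of DSC3, which also fell, held none. Whether the motif has a part in these changes was not tested.
DSC2 promoter, chr18:31102422-31102671, strand -: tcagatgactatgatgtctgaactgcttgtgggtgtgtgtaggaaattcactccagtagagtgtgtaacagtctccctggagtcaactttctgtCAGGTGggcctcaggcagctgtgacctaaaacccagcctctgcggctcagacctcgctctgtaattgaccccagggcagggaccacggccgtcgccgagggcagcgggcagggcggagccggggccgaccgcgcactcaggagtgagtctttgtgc

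Desmoglein 2 (DSG2), the main desmoglein of simple epithelia, changed far less, with 27.8, 26.9 and 26.2 FPKM in the CRLM1-OE samples, 27.9, 26.8 and 26.4 in the Ctrl samples and 28.8, 30.3 and 30.0 in the Anti samples. It was lower than in Anti (log2 fold change -0.19, SE 0.024, adjusted p = 3.00e-14), but the value against Ctrl, -0.12 (SE 0.026, adjusted p = 3.26e-05), came with overlapping FPKM and turned to 0.022 under total counts. Anti against Ctrl gave 0.044 (SE 0.026, adjusted p = 0.261), or 0.15 with an adjusted p of 4.98e-08 under total counts. The ratio of DSG2 to DSC2 was 22.2 ± 0.371 in the CRLM1-OE group, 14.3 ± 0.905 in the Ctrl group and 12.9 ± 0.456 in the Anti group, CRLM1-OE lying above all controls. DSC1, DSG1, DSG3 and DSG4, cadherins of stratified epithelia, had at most 8 counts in any sample and passed no comparison.

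**Figure D4:**
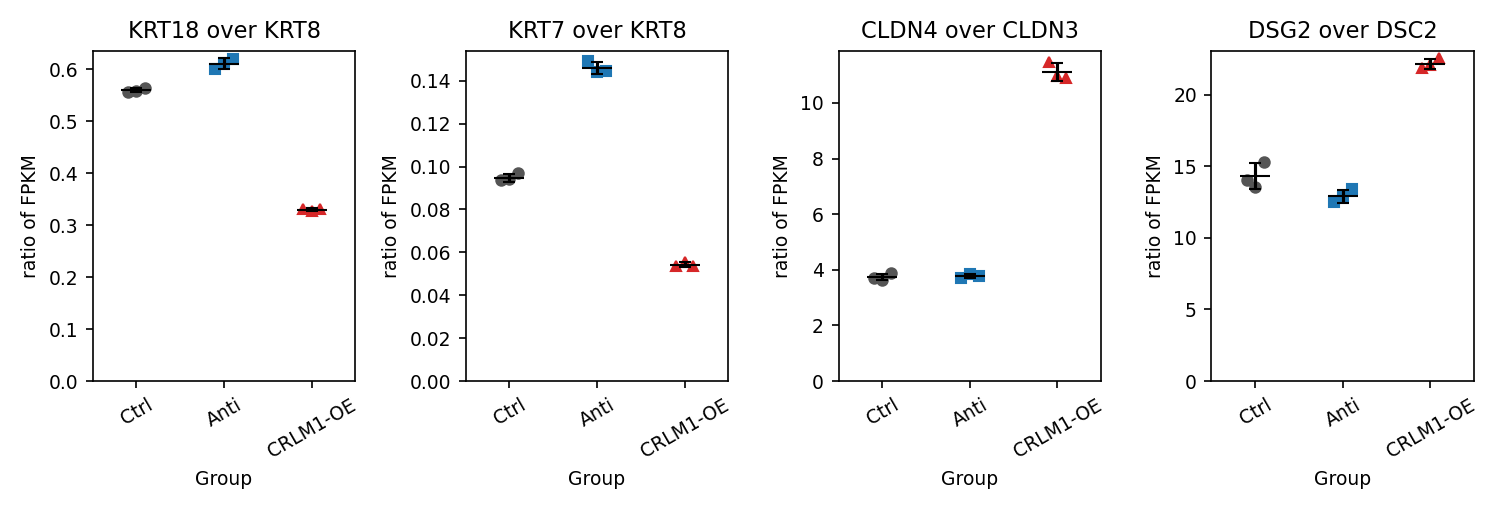
Ratios of FPKM within each sample (vertical axes from 0), with a point for each of the 3 samples of a group and the mean ± SD as bars. KRT18 over KRT8 and KRT7 over KRT8 are lowest in CRLM1-OE, and CLDN4 over CLDN3 and DSG2 over DSC2 are highest there.

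The plaque genes differed in direction. Plakoglobin (JUP), which also serves adherens junctions, was the most abundant of them, with 144, 142 and 142 FPKM in the CRLM1-OE samples, 109.9, 112 and 111 in the Ctrl samples and 92.4, 94.5 and 93.2 in the Anti samples. The groups did not overlap, and JUP rose by 0.57 (SE 0.019, adjusted p = 1.15e-190) against Anti and 0.25 (SE 0.021, adjusted p = 1.97e-29) against Ctrl on the log2 scale. Anti lay below Ctrl (log2 fold change -0.34, SE 0.022, adjusted p = 3.68e-52). Desmoplakin (DSP) was nearly level at 14.1, 13.8 and 13.96 FPKM in the CRLM1-OE samples, 13.1, 12.8 and 12.6 in the Ctrl samples and 13.7, 13.9 and 14.3 in the Anti samples. It passed no comparison, with 0.0039 (SE 0.028, adjusted p = 0.953) against Ctrl, -0.045 (SE 0.025, adjusted p = 0.174) against Anti and 0.027 (SE 0.028, adjusted p = 0.585) for Anti against Ctrl. Total counts gave 0.15 against Ctrl with an adjusted p of 1.42e-06 and turned the sign against Anti. The ratio of JUP to DSP was 10.2 ± 0.0481 in the CRLM1-OE group, 8.64 ± 0.237 in the Ctrl group and 6.69 ± 0.146 in the Anti group.

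Plakophilin 3 (PKP3), which binds most desmosomal cadherins, had 41.4, 40.4 and 38.8 FPKM in the CRLM1-OE samples, 44.1, 42.3 and 41.9 in the Ctrl samples and 48.8, 46.9 and 49.3 in the Anti samples. It was lower in CRLM1-OE than in Anti (log2 fold change -0.31, SE 0.026, adjusted p = 7.09e-32). Its lower value than in Ctrl (log2 fold change -0.21, SE 0.029, adjusted p = 1.21e-11) shrank to -0.064 with an adjusted p of 0.0806 under total counts. PKP3 was slightly higher in Anti than in Ctrl (log2 fold change 0.085), past the test in the main fit. That was lost without Anti replicate 1 or Anti replicate 3 (adjusted p = 0.0853 and 0.0665). Plakophilin 2 (PKP2), the plakophilin of simple epithelia and heart, had 7.39, 7.74 and 7.48 FPKM in the CRLM1-OE samples, 6.63, 6.72 and 6.91 in the Ctrl samples and 6.0, 5.78 and 5.83 in the Anti samples. It was higher in CRLM1-OE than in Anti (log2 fold change 0.31, SE 0.047, adjusted p = 1.38e-10) and gave 0.044 (SE 0.046, adjusted p = 0.556) against Ctrl. The latter passed under total counts (0.18, adjusted p = 3.06e-04) and with limma (0.16 and 0.14, adjusted p = 0.0119 and 0.0129). Anti was below Ctrl for PKP2 (log2 fold change -0.29, SE 0.049, adjusted p = 2.38e-08). PKP4 stayed between 4.02 and 4.76 FPKM and passed against Anti (log2 fold change -0.15, SE 0.048, adjusted p = 0.00643). Total counts reduced this to -0.091 with an adjusted p of 0.140, and PKP1 had at most 3 counts. Summed plaque genes were 209 ± 2.48 in the CRLM1-OE group, 178 ± 1.03 in the Ctrl group and 166 ± 0.952 in the Anti group FPKM. Summed desmosomal cadherins were 29.0 ± 0.826 in the CRLM1-OE group, 30.1 ± 0.929 in the Ctrl group and 33.5 ± 0.718 in the Anti group FPKM.

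**Figure D5:**
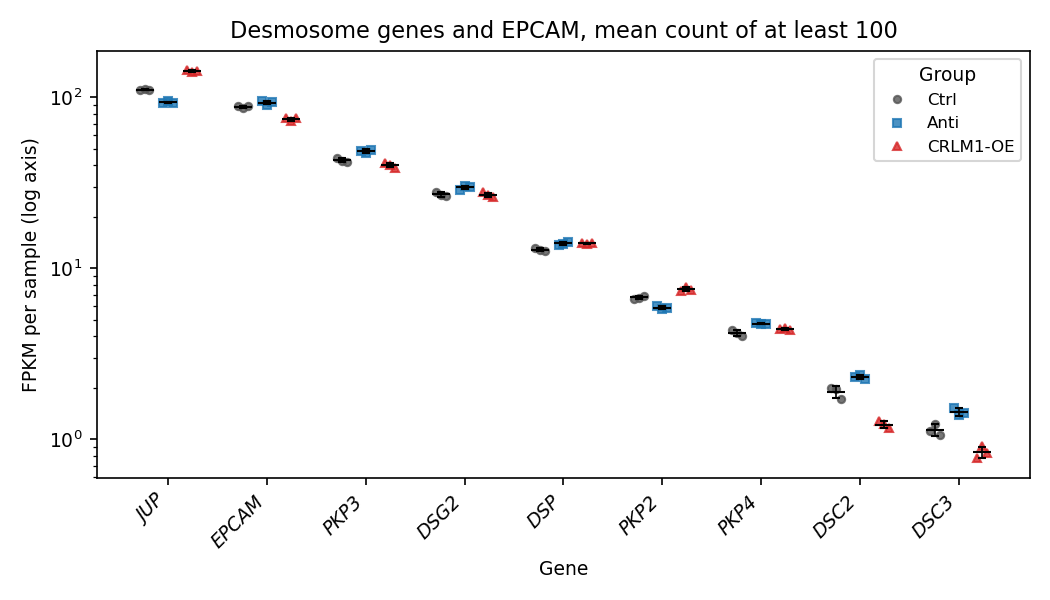
FPKM of the 8 desmosome genes with a mean of at least 100 counts and of EPCAM (log vertical axis), with a point for each of the 3 samples of a group and the mean ± SD as bars. DSC2, DSC3 and EPCAM are lowest in CRLM1-OE, JUP and PKP2 are highest there, and DSP stays within 12.6 to 14.3 FPKM.

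EPCAM had 75.3, 72.7 and 75.2 FPKM in the CRLM1-OE samples, 88.8, 86.2 and 88.5 in the Ctrl samples and 95.1, 90.6 and 93.5 in the Anti samples, all CRLM1-OE samples lying below all controls. Its log2 fold change was -0.35 (SE 0.027, adjusted p = 6.93e-39) against Ctrl and -0.37 (SE 0.024, adjusted p = 3.53e-52) against Anti. Anti against Ctrl gave -0.0074 (SE 0.025, adjusted p = 0.879), and total counts turned this to 0.10 with an adjusted p of 6.17e-04. Of the EPCAM partner and matriptase genes 3 of 4 rose against Ctrl, where 15.0 percent of all genes did, and 4 of 4 against Anti, where 17.1 percent did, and 1 was higher and 2 lower in Anti than in Ctrl. The matriptase inhibitor SPINT1, which protects EPCAM and claudins from cleavage, rose by 0.34 (SE 0.028, adjusted p = 1.22e-33) against Ctrl and 0.46 (SE 0.025, adjusted p = 5.66e-71) against Anti. The protease matriptase itself, ST14, rose by 0.38 (SE 0.027, adjusted p = 4.46e-42) and 0.14 (SE 0.024, adjusted p = 4.97e-08), and was higher in Anti than in Ctrl (log2 fold change 0.22, SE 0.027, adjusted p = 4.95e-14).

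Further genes of the same junctions were read from lists that do not hold the members. For every such list the share of all genes that rose and fell is 15.0 and 16.8 percent against Ctrl, 17.1 and 18.5 percent against Anti, and 11.5 and 12.2 percent for Anti against Ctrl, and many list members are deeply counted genes, which pass more often. Of the cytoplasmic tight junction and polarity genes, 12 of 27 rose and 4 fell against Ctrl, 13 of 28 rose and 4 fell against Anti, and 2 were higher and 9 lower in Anti than in Ctrl. Cingulin (CGN), which ties ZO proteins to actomyosin, rose by 1.05 (SE 0.048, adjusted p = 7.14e-103) against Ctrl and 0.96 (SE 0.047, adjusted p = 2.40e-93) against Anti. AMOTL2, an angiomotin, rose by 0.80 (SE 0.029, adjusted p = 1.42e-160) and 0.85 (SE 0.027, adjusted p = 8.13e-215). Of 11 adherens junction genes, 4 rose and 2 fell against Ctrl (all genes 15.0 and 16.8 percent), 4 rose and 5 fell against Anti, and 4 were higher and 4 lower in Anti than in Ctrl. Afadin (MLLT4) rose by 0.98 (SE 0.043, adjusted p = 1.17e-110) against Ctrl and 0.50 (SE 0.039, adjusted p = 4.64e-36) against Anti. Nectin-3 (PVRL3) gave -0.90 (SE 0.047, adjusted p = 1.75e-79) and -0.74 (SE 0.047, adjusted p = 1.83e-54).

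Plakins and hemidesmosome genes, which anchor keratin to junctions and to the basement membrane, went both ways. Of these, 3 of 11 rose and 5 fell against Ctrl (all genes 15.0 and 16.8 percent), 4 rose and 4 fell against Anti (17.1 and 18.5 percent), and 2 were higher and 4 lower in Anti than in Ctrl. Those that fell included the hemidesmosome collagen COL17A1, at -1.24 (SE 0.077, adjusted p = 2.32e-56) against Ctrl and -1.56 (SE 0.072, adjusted p = 5.36e-102) against Anti. ITGB4, an integrin chain of the same structure, gave -0.92 (SE 0.022, adjusted p = 1e-300) and -0.85 (SE 0.020, adjusted p = 1e-300). Plectin (PLEC), a linker of keratin, rose by 0.69 (SE 0.019, adjusted p = 1.59e-294) against Ctrl, and periplakin (PPL) by 0.62 (SE 0.034, adjusted p = 1.06e-72) against Anti. Of 11 regulators of epithelial genes, 7 rose and 3 fell against Ctrl (all genes 15.0 and 16.8 percent), 3 rose and 2 fell against Anti (17.1 and 18.5 percent), and 3 were higher and 2 lower in Anti than in Ctrl. The splicing factor ESRP1 fell in both comparisons with CRLM1-OE, -0.47 (SE 0.030, adjusted p = 3.01e-51) and -0.49 (SE 0.028, adjusted p = 8.91e-67). The grainyhead factor GRHL3 rose, 0.64 (SE 0.13, adjusted p = 4.68e-06) and 0.65 (SE 0.13, adjusted p = 1.60e-06).

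Of the transcription factors of epithelial-mesenchymal transition sought (SNAI1 to SNAI3, ZEB1, ZEB2, TWIST1 and TWIST2), only 5 were listed. Of these, 5 of 5 rose against Ctrl (15.0 percent of all genes) and 5 of 5 against Anti (17.1 percent), and 0 were higher and 2 lower in Anti than in Ctrl. SNAI1 gave 0.61 (SE 0.068, adjusted p = 4.16e-18) and 1.03 (SE 0.071, adjusted p = 1.47e-45). SNAI2 gave 0.68 (SE 0.13, adjusted p = 1.10e-06) and 0.80 (SE 0.13, adjusted p = 4.46e-09). The study itself names several of these factors from these samples, so this count is no independent evidence of their direction. Among intermediate filament genes other than keratins, 5 of 9 rose and 2 fell against Ctrl (all genes 15.0 and 16.8 percent), 2 of 12 rose and 1 fell against Anti (17.1 and 18.5 percent), and 4 of 11 were higher and 0 lower in Anti than in Ctrl. Nestin (NES) gave -0.46 (SE 0.075, adjusted p = 1.17e-08) and -0.91 (SE 0.069, adjusted p = 2.95e-38), and 0.43 (SE 0.067, adjusted p = 1.63e-09) for Anti against Ctrl. Vimentin (VIM), the filament protein of mesenchymal cells, was the member called 2-fold against each control, at 1.08 (SE 0.18, adjusted p = 1.14e-08) and 1.35 (SE 0.18, adjusted p = 1.91e-12), with 1.17 FPKM on average in CRLM1-OE. Synemin (SYNM) gave 0.65 (SE 0.14, adjusted p = 2.05e-05) against Ctrl and -0.023 (SE 0.13, adjusted p = 0.916) against Anti.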

How the data were processed

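RNA of 9 HCT116 samples, 3 per group, was sequenced as paired 151 nt reads from KAPA RNA HyperPrep libraries. According to the study's methods and the submitters' processing notes, the authors trimmed reads with FASTX-Toolkit, dropped those under 16 nt, aligned them with TopHat2 to GRCh38 with up to 4 mismatches, and counted uniquely mapped reads per gene of Gencode version 23. The strand setting and whether pairs were counted once are not given in the sources used here. Both deposited tables were used, namely raw read counts deposited per gene and sample, and FPKM that the authors deposited with 2 decimals.

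Counts of the 6 samples of a comparison were tested by the quasi-likelihood test of edgeR (version 4.0.16, R version 4.3.3) with TMM factors, for genes with at least 1 count and with Benjamini-Hochberg adjustment over all genes tested. The standard error is the coefficient divided by the square root of F. Genes were called at an adjusted p of at most 0.05 and a fold change of at least 2, and "rose" and "fell" refer to the adjusted p. FPKM served for levels and ratios and are subject to multi-mapped reads being dropped, which lowers genes with close copies. Adjusted p-values below 1e-300 were written as 1e-300. The fit was tested on simulated data with known fold changes. These were given only to genes above a count minimum, with the same dispersion for every gene, so the simulation does not cover members of low count.

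Alternatives were RLE factors, total counts, filterByExpr, DESeq2 1.42.0, limma 3.58.1 on log2(FPKM + 0.1) and log2(FPKM + 1), all 9 samples, a replicate block and leaving out each sample. Members and gene lists were chosen with earlier results of these data known. Named were members called in any comparison, the 3 most abundant of each class, up to 3 per class and comparison with a mean of at least 100 counts and the largest change past the test, and a set of well-known members; KRT5, KRT13, KRT83, KRT36, KRT222, CLDN9, CLDN12, PKP1, PKP4, DSC1, DSG1, DSG3, DSG4 and, of the other genes, VIM were named after their values were seen where they fall outside that rule. From each list of other genes only examples of the same rule are given. Promoters are RefSeq sequences on GRCh38.p14, matched by symbol for 19 of 35 deeply counted members. Gene positions come from GENCODE version 44. Some items are not reported here, in text or plots.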

Additional observations from a re-analysis of the deposited data

How the results depend on the processing

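Members past the adjusted p were 19 up against Ctrl under total counts, and 18 for Anti against Ctrl, in place of 10. Called members against Ctrl were 4 up under total counts and 0 up with DESeq2 in place of 1, and 0 down in place of 4 with limma on log2(FPKM + 1), which compresses genes of low FPKM by construction. That setting gave 2 up and 1 down against Anti in place of 5 and 4, and 0 up for Anti against Ctrl in place of 1. Leaving out 1 sample gave 1 to 2 called up against Ctrl (2 without Ctrl replicate 2) and 0 to 1 called down for Anti against Ctrl (1 without Anti replicate 1, KRT14). The gene called up against Ctrl changed. KRT31 (1.09 and 1.42) replaced KRT37 without CRLM1-OE replicate 2 or Ctrl replicate 1, and CLDN15 (1.00) and KRT9 (1.01) did without Ctrl replicate 2. Against Anti, 5 to 6 were called up and 4 to 5 down. KRT34 or CLDN1 joined those up and KRT18 or KRT20 those down in some of these fits. The labels number replicates 1 to 3 in every group, but deviations of same-numbered samples correlated at -0.088 to 0.081 over 12941 genes, so the numbers were not taken as pairs. The replicate block left the counts of members at 13 up and 19 down, 18 and 16, and 10 and 16, called 1 and 4, 5 and 4, and 1 and 0, and changed the call of none of the 123 log2 fold changes of members named by the rule, CLDN12 and PKP4 not among them. All 33 group means of ratios and shares moved by less than 1 SD with CPM per kb from TMM factors.

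Most directions that turned were of log2 fold changes near 0, the exceptions being CLDN2 (-0.43) and KRT37 (0.45) for Anti against Ctrl, both at few counts. Against Ctrl, total counts gave 0.022 for DSG2, 0.0018 for F11R, 0.091 for MARVELD2 and 0.11 for TJP1, limma with 0.1 gave 0.065 for MARVELD2 and 0.087 for TJP1, and with 1 gave 0.056 and 0.079. Against Anti, CLDN23 was 0.0057 with RLE factors, 0.057 with total counts, 0.0044 with filterByExpr, 0.0038 with DESeq2, and 0.036 and 0.025 with limma. Total counts also gave 0.014 for DSP, 0.018 for MARVELD2, 0.041 for OCLN and 0.0023 for TJP1, and limma 0.0083 and 0.0072 for MARVELD2 and 0.028 and 0.024 for OCLN. For Anti against Ctrl, total counts gave 0.098 for EPCAM, 0.086 for KRT18 and 0.072 for MARVELD2, limma 0.084 and 0.083, 0.073 and 0.073, and 0.056 and 0.049, and all 9 samples 0.018 for EPCAM and 0.0069 for KRT18. Leaving out 1 sample moved CLDN7 from -0.0071 to 0.064, DSP from -0.0026 to 0.025 and TJP1 from -0.038 to 0.0011 against Ctrl, CLDN23 from -0.092 to 0.057, MARVELD2 from -0.081 to 0.0028 and OCLN from -0.065 to 0.0059 against Anti, and CLDN2 from -0.87 to 0.22, EPCAM from -0.025 to 0.0084, KRT37 from -0.010 to 1.5, MARVELD2 from -0.081 to 0.0088 and TJP1 from -0.0069 to 0.037 for Anti against Ctrl. The cause was not tested. The filterByExpr filter removed the low gene in 7 of the values, which then have none. At few counts, changes under 2-fold may not be detectable, and 3 samples per group from 1 cell line limit what the spread covers.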
